A study of Mus musculus with 12 samples.

Results

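The genes described here are the 10 that make, fold and supply the ascorbate-dependent step of collagen synthesis, chosen by gene symbol from the 20325 genes of each library. They are the prolyl 4-hydroxylase subunits P4ha1, P4ha2, P4ha3 and P4hb, the lysyl hydroxylases Plod1, Plod2 and Plod3, the collagen chaperone Serpinh1 (HSP47), and the sodium-dependent ascorbate transporters Slc23a1 and Slc23a2. Their transcripts were measured by RNA sequencing in mouse pre-iPSCs, which are reprogramming intermediates that stalled before the pluripotent state. The cells were a partially reprogrammed line, per the methods a clonal one carrying a Nanog-GFP reporter that had been derived from fibroblasts with retroviral factors, and it was exposed for 48 h to 1 of 4 media. These were ESC medium with serum and DMSO as the control, with ascorbic acid (AA) at 50 µg/ml, with 2i (1 µM of a MEK inhibitor and 3 µM of a GSK inhibitor), or with both (AA+2i). Feeder cells carried the line in culture and were left out of all 4 media, and each condition had 3 biological replicates, labelled A, B and C. One clonal line cannot stand for the variation between lines.

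Collagen chains acquire hydroxyl groups on proline and lysine inside the endoplasmic reticulum, before the triple helix forms. Prolyl 4-hydroxylase is built from alpha subunits, which carry the catalytic site, and from P4hb, which is also protein disulphide isomerase. The lysyl hydroxylases prepare lysines for sugar attachment and crosslinks, and Serpinh1 holds the folded helix. All of these hydroxylases use iron, oxygen and 2-oxoglutarate, and ascorbate returns their iron to the reduced state. AA is thus a cofactor of these enzymes as well as of the chromatin enzymes for which it is used in reprogramming, and cells take it up through Slc23a1 and Slc23a2.

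The promoters of P4ha1, P4ha2 and P4hb are shown because the first gave the only change among the 10 genes that passed the test, the second passed it after a correction for base composition, and the third codes for the subunit that joins both. They come from RefSeq (GRCm38.p6), run from 250 bases before to 50 bases after the annotated start, and are written 5′ to 3′ on the strand of the gene. Capitals mark the core of the hypoxia response element, searched as ACGTG and GCGTG on both strands, so that a core on the other strand reads CACGT or CACGC and a palindrome is counted on both.
P4ha1 promoter, chr10:59323046-59323345, plus strand: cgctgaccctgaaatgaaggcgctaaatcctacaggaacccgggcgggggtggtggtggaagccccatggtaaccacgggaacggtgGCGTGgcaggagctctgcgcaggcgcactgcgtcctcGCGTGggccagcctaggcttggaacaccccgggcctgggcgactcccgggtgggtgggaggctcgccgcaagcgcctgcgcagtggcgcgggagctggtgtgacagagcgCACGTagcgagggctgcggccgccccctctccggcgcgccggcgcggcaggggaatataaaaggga
P4ha2 promoter, chr11:54100674-54100973, plus strand: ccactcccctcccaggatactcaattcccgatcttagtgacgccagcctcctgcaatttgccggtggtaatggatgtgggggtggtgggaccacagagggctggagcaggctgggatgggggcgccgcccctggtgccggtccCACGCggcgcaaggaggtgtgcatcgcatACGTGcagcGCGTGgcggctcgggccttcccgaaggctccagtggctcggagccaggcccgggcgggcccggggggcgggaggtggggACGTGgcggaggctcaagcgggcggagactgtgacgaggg
P4hb promoter, chr11:120573204-120573503, minus strand: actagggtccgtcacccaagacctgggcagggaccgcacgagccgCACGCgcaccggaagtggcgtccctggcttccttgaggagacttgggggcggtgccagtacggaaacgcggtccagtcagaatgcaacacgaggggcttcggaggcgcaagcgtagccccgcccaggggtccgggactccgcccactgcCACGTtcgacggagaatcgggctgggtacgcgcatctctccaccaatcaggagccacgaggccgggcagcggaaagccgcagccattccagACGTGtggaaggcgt
The P4ha1 window held 3 cores, that of P4ha2 held 4 and that of P4hb held 3. Plod3, which passed no test, also held 4, at a GC content of 53.3%. Plod1 held 2, Serpinh1 held 1, and the windows of Slc23a2 held 1 and 0. Of all 32851 promoter windows of this length, 43.8% held at least 1 core and 8.93% held 3 or more, and among windows with a GC content of at least 65% the share with a core was 71.7%. The share of such GC-rich windows with 3 or more cores was not computed. The windows of P4ha1, P4ha2 and P4hb have a GC content of 67.0 to 70.3%. A match of these letters is a description of the window and not a site. The windows of 8 of the 10 genes were searched, since Plod2 had none and Slc23a1 was left out of the search. Of these 8 genes, 7 held a core, P4ha3 being the one without.

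Expected counts summed to between 16173322 and 54392719 per library, in DMSO B and AA B the deepest. The pre-iPSC label was checked first. Pou5f1 (at least 1865 TPM), Cdh1 (at least 31.8 TPM) and Epcam (at least 60.5 TPM) were present in all 12 libraries, while the pluripotency gene Nanog was low in DMSO (2.93 to 7.14 TPM). Of the same list, Fut4 was at most 0.12 TPM in any library, and Utf1 and Esrrb were at most 0.2 and 0.31 TPM in DMSO. The retroviral factors included Oct4 (Pou5f1), and its reads were not told apart from those of the cell's own gene. Of 13 fibroblast markers, Lum and Tcf21 were at 0 in every library and 8 stayed under 1 TPM throughout, but the summed level of the list was 355 to 540 TPM in DMSO, 267 to 372 in AA, 47.7 to 60.2 in 2i and 37.8 to 46.4 in AA+2i. S100a4, which many motile cells also express, made up most of these sums, and the markers did not all move with it in AA. Thy1 was at 2.64, 5.55 and 7.21 TPM in DMSO A, B and C, and higher in AA, at 6.69, 15.12 and 15.99. Prrx1 was lower within each letter, at 3.31, 3.96 and 2.13 TPM in DMSO and 2.5, 1.32 and 1.08 in AA. Of the 13 markers, 8 were tested. In AA against DMSO, edgeR called 0 of them (4 at an unadjusted p under 0.05), beside 1.34% of all genes. In 2i it called 1, S100a4, and in AA+2i 2, S100a4 and Fbln2, all lower, beside 4.42% and 8.34%. These are bulk libraries, in which fewer cells of a type and less RNA per cell cannot be told apart.
The libraries also differed in how a gene's measured level depended on its base composition. Each library was compared with the mean of the 12 along the GC content of the transcripts, on the scale of log2 CPM (counts scaled to library size). At a GC content of 57%, DMSO A lay at -1.38, AA A at -1.06 and AA+2i C at 0.74 relative to that mean. At 45%, the same 3 libraries lay at 0.35, 0.36 and -0.37. The 10 transcripts span a GC content of 43.0% (Plod2) to 57.8% (Plod3).

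TPM is scaled for transcript length and can therefore be compared between genes, but it is not corrected for the GC dependence above. With DMSO, P4hb had the highest mean (550 ± 109 TPM, SD, n = 3), followed by Serpinh1 (199.6 ± 121), Plod2 (78.6 ± 22.6) and P4ha1 (66.6 ± 19.7). Plod3 (42.7 ± 36.2), Plod1 (17.4 ± 14.4) and Slc23a2 (17.2 ± 4.18) came next, then P4ha2 (6.47 ± 3.84), Slc23a1 (2.62 ± 0.844) and P4ha3 (0.0633 ± 0.0153). In that order the libraries of P4hb and Serpinh1 did not overlap, nor those of Serpinh1 and Plod2, while the ranges of neighbours from Plod2 down to Slc23a2 overlapped. The first 3 places were held by the same genes in all 4 conditions. With 2i and AA+2i, the mean of Plod3 stood above that of P4ha1, with overlapping libraries with 2i (30.2 to 51.9 against 23.0 to 43.0 TPM in the outer libraries) and none in AA+2i (38.0 to 53.0 against 17.9 to 32.7). Plod3 was also above P4ha1 in AA B (43.2 against 41.9 TPM) and AA C (48.8 against 29.2), but not in AA A (13.5 against 58.1). The transcripts of Plod3 and P4ha1 differ in GC content (57.8 and 45.7%), and its part in this order was not tested.

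**Figure D1:**
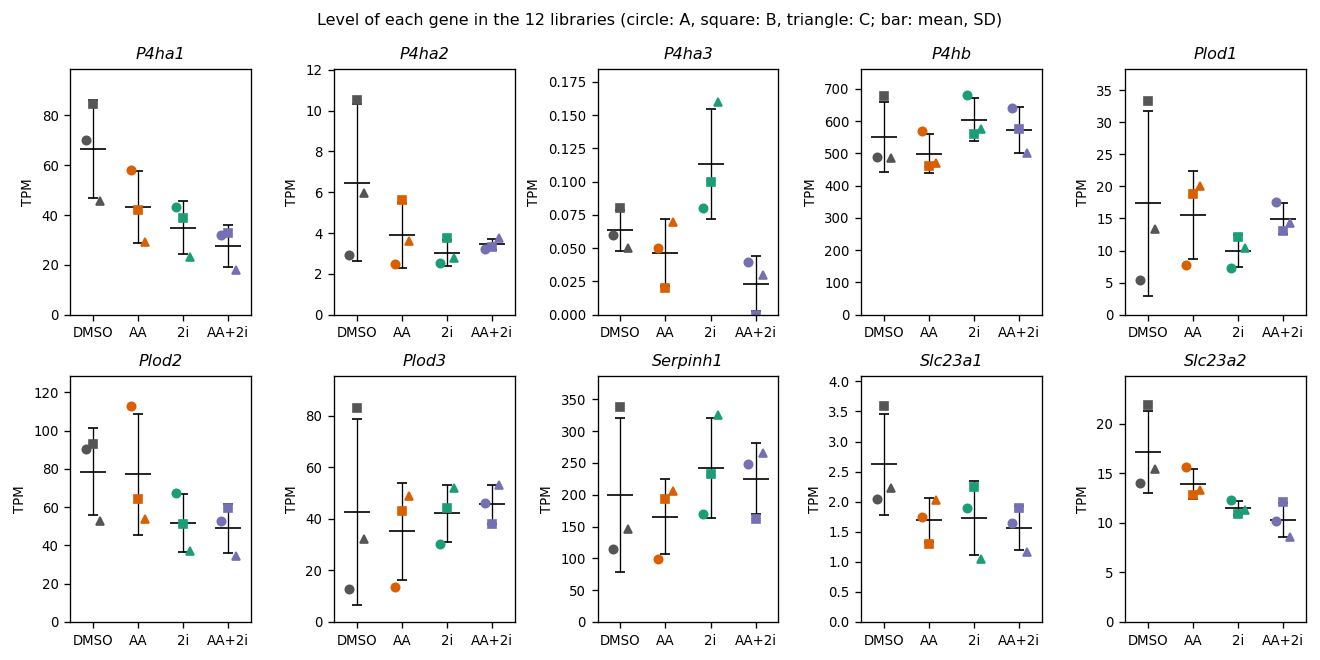
TPM of the 10 genes in each of the 12 libraries, by condition, on linear axes that start at 0 and differ between genes. Each symbol is a library (circle A, square B, triangle C), the horizontal bar is the mean and the whiskers are the SD (n = 3), and P4ha1 steps down from DMSO (45.5 to 84.4 TPM) to AA+2i (17.9 to 32.7 TPM) while Plod1, Plod3 and Serpinh1 spread most within DMSO.

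P4ha1, the main catalytic alpha subunit, lies at chr10:58786044-58836052 (mm9, plus strand). It was the one gene of the 9 tested whose change passed the test, an adjusted p under 0.05 that 8.34% of all genes tested reached in AA+2i. It was read at 70.0, 84.4 and 45.5 TPM in DMSO A, B and C, at 58.1, 41.9 and 29.2 TPM in AA, at 43.0, 39.0 and 23.0 TPM in 2i, and at 32.0, 32.7 and 17.9 TPM in AA+2i. All libraries with 2i or AA+2i lay below all DMSO libraries, whereas those with AA overlapped with DMSO. Within each letter the order was DMSO, AA, 2i, AA+2i from high to low. P4ha1 was the only one of the 10 with the same order in all 3 letters, whichever the order, beside 5.82% of the genes tested. The order seen for P4ha1 was held in all 3 letters by 2.52%.
P4ha1 fell by 1.08 on the log2 scale in AA+2i (SE 0.295, edgeR quasi-likelihood test with Benjamini-Hochberg adjustment over 13400 genes, adjusted p = 0.0475), to 0.474 times the DMSO level. With 2i the log2 difference was -0.74 (SE 0.294, adjusted p = 0.231, edgeR), and in AA it was -0.60 (SE 0.293, adjusted p = 0.602, edgeR). The change in AA did not differ detectably between cells with and without 2i (interaction 0.26, SE 0.413, edgeR adjusted p = 1.0).
In this model the call in AA+2i lay near the threshold. It was kept with TMM factors (adjusted p = 0.0468, edgeR), with DESeq2 (adjusted p = 0.00991) and with a correction for GC content (log2 difference -0.81, adjusted p = 0.0159, edgeR). It was lost with limma on log2(TPM + 1) (adjusted p = 0.0551), without DMSO B (adjusted p = 0.117, edgeR), without DMSO A and AA A (adjusted p = 0.0702, edgeR), and when any 1 letter was left out (adjusted p = 0.0687 to 0.34, edgeR). The difference was below 0 in every one of these fits. S100a4 moved in the same direction (396 ± 96.0 TPM in DMSO, 29.2 ± 6.59 in AA+2i, n = 3), and its part in the change of P4ha1 was not tested.

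P4ha2, the second alpha subunit (mm9 chr11:53913597-53945167, plus strand), was read at 2.91, 10.5 and 5.95 TPM in DMSO, 2.48, 5.62 and 3.61 in AA, 2.55, 3.76 and 2.80 in 2i, and 3.24, 3.34 and 3.77 in AA+2i. DMSO A was as low as the treated libraries and DMSO B was 3.62 times as high as DMSO A, so that every treated group overlapped with DMSO. Its log2 differences from DMSO were -0.64 in AA, -0.86 in 2i and -0.64 in AA+2i (SE 0.416 to 0.42, edgeR adjusted p = 0.815, 0.353 and 0.326). Without DMSO B they were -0.22, -0.43 and -0.22, and without letter B the last was -0.15. With the GC correction the standard errors were 0.273 to 0.278 and P4ha2 passed the test in 2i (-1.03, edgeR adjusted p = 0.0312) and in AA+2i (-0.94, edgeR adjusted p = 0.0318), but not in AA (-0.78, edgeR adjusted p = 0.16). Over all genes, that correction called 12.1% in 2i, 19.8% in AA+2i and 4.03% in AA, so more calls were made throughout. P4ha3, the third alpha subunit (mm9 chr7:107434030-107468209, plus strand), had 0 to 4.45 expected counts per library and at most 0.16 TPM, and was the one gene of the 10 that did not pass the filter on low counts.
P4ha1 supplied most alpha subunit transcripts in every library, 88.3 to 95.9% of the summed TPM of the 3 in DMSO and 82.5 to 90.7% in AA+2i.

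P4hb (mm9 chr11:120421612-120434567, minus strand) was the most abundant of the 10 in each library, and its DMSO libraries differed by 1.4-fold. It was read at 490, 676 and 484 TPM in DMSO, 570, 459 and 469.5 in AA, 681, 559 and 575 in 2i, and 642, 577 and 501 in AA+2i, and each treated group overlapped with DMSO. The log2 differences were -0.10 in AA, 0.34 in 2i and 0.28 in AA+2i (SE 0.161, edgeR adjusted p = 0.955, 0.343 and 0.29). Against AA, AA+2i gave 0.38 (SE 0.162, unadjusted p = 0.0394, adjusted p = 0.256, edgeR), which DESeq2 called, and the 3 libraries of each still overlapped.
P4hb transcripts per alpha subunit transcript, a ratio of TPM within a library, were 6.72, 7.12 and 9.41 in DMSO A, B and C, 9.41, 9.67 and 14.27 in AA, 14.91, 13.06 and 22.16 in 2i, and 18.21, 16.01 and 23.12 in AA+2i. All libraries with 2i or AA+2i lay above all DMSO libraries, and within each letter the ratio rose in the order DMSO, AA, 2i, AA+2i, the reverse of the order of P4ha1, which forms most of its denominator. The ratio was chosen with these values in view and was given no test. The transcripts of P4hb have a GC content of 53.8% and those of P4ha1 45.7%, and with the GC correction the AA+2i difference was -0.06 for P4hb (SE 0.23) and -0.81 for P4ha1 (SE 0.204).

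**Figure D2:**
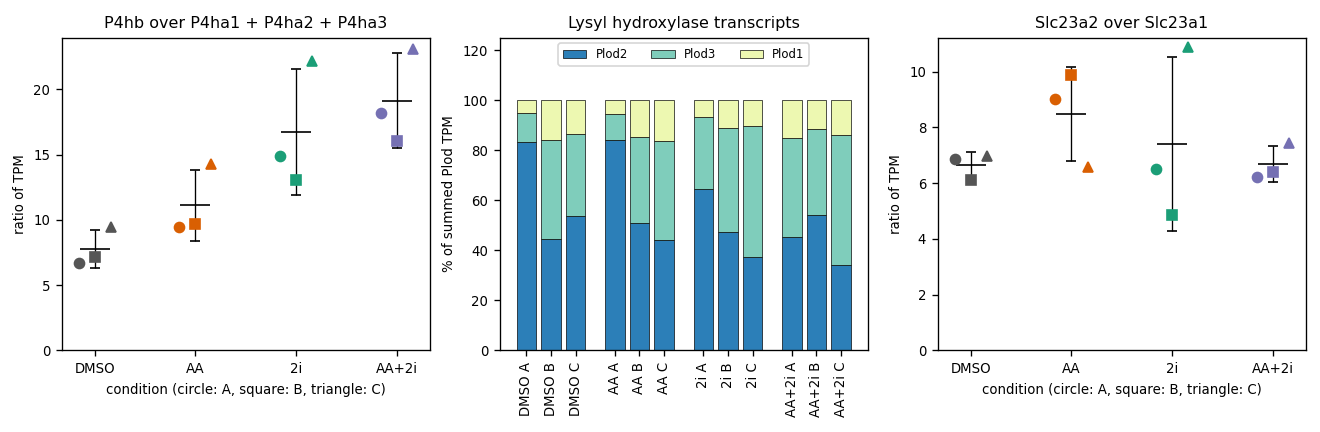
Left, P4hb TPM over the summed TPM of the alpha subunits, and right, Slc23a2 TPM over Slc23a1 TPM, with each library as a symbol (circle A, square B, triangle C), the mean as a bar and the SD as whiskers (n = 3). Middle, the share of Plod2, Plod3 and Plod1 in the summed Plod TPM of each library, where DMSO A (83.2%) and AA A (84.2%) stand out by their share of Plod2, and the left ratio is 6.72 to 9.41 in DMSO and 16.01 to 23.12 in AA+2i.

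Of the 3 lysyl hydroxylases, 0 passed the edgeR test in any of the 6 comparisons, with 0 at an unadjusted p under 0.05 and 0 by DESeq2 and by limma, where edgeR called between 0.0149% and 8.34% of all genes. Plod2, which hydroxylates lysines of the collagen telopeptides (mm9 chr9:92437061-92503266, plus strand), was read at 90.1, 93.1 and 52.6 TPM in DMSO, 113, 64.3 and 54.0 in AA, 67.4, 51.0 and 36.9 in 2i, and 52.5, 59.6 and 34.7 in AA+2i. The C library was the lowest in each of the 4 conditions, and each treated group overlapped with DMSO. Its log2 difference was -0.01 in AA, -0.42 in 2i and -0.49 in AA+2i (SE 0.295, edgeR adjusted p = 0.997, 0.522 and 0.301), and with the GC correction the last was -0.07 (SE 0.146).
Plod3, which also adds sugars to hydroxylysine (mm9 chr5:137462889-137472518, plus strand), was read at 12.7, 83.0 and 32.4 TPM in DMSO, 13.5, 43.2 and 48.8 in AA, 30.2, 44.4 and 51.9 in 2i, and 46.1, 38.0 and 53.0 in AA+2i. The DMSO libraries differed by 6.51-fold and enclosed every treated library. The log2 difference was -0.16 in AA, 0.26 in 2i and 0.40 in AA+2i (SE 0.588 to 0.589, edgeR adjusted p = 0.971, 0.824 and 0.649), and with the GC correction the last was -0.15 (SE 0.202).
Plod1, which hydroxylates lysines of the helix (mm9 chr4:147283862-147310876, minus strand), was read at 5.40, 33.3 and 13.4 TPM in DMSO, 7.71, 18.9 and 20.1 in AA, 7.24, 12.1 and 10.4 in 2i, and 17.6, 13.0 and 14.4 in AA+2i. Its DMSO libraries differed by 6.17-fold and again enclosed every treated library. All 3 AA+2i libraries lay above all 3 2i libraries, at a log2 difference of 0.61 (SE 0.533, edgeR adjusted p = 0.969). Against DMSO the differences were -0.05 in AA, -0.54 in 2i and 0.07 in AA+2i (SE 0.53 to 0.533, edgeR adjusted p = 0.993, 0.634 and 0.938), and with the GC correction the one in 2i was -0.77 (SE 0.268, unadjusted p = 0.0147, adjusted p = 0.0901, edgeR).
Serpinh1, which binds procollagen in the endoplasmic reticulum (mm9 chr7:106493885-106501740, minus strand), was read at 114, 338 and 146 TPM in DMSO, 98.7, 193 and 206 in AA, 169.5, 232 and 325 in 2i, and 247, 162 and 266 in AA+2i. DMSO B was the highest of the 12 libraries and AA A the lowest, and every treated group overlapped with DMSO. The log2 differences were -0.17 in AA, 0.54 in 2i and 0.46 in AA+2i (SE 0.433 to 0.435, edgeR adjusted p = 0.963, 0.566 and 0.48), and with the GC correction the last was -0.17 (SE 0.183).

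Plod3, Serpinh1 and Plod1 were lowest in libraries that read GC-rich transcripts low. Their transcripts have a GC content of 57.8, 56.8 and 56.3%, and genes of that composition were read lowest in DMSO A and AA A. These libraries held the lowest values of Plod3 and Serpinh1, and for Plod1 they were the lowest and the third lowest, with 2i A between them. The highest value of all 3 was in DMSO B, at a deviation of 0.32 at 57% GC, while AA+2i C had the largest deviation, 0.74. The part of GC content in the spread was not tested. After the GC correction the standard error of the AA+2i difference went from 0.589 to 0.202 for Plod3, from 0.434 to 0.183 for Serpinh1 and from 0.53 to 0.265 for Plod1, and all 3 differences turned from above 0 to below it. In neither fit did one of these 3 AA+2i differences pass the test. DMSO B was the highest DMSO library for all 10 genes (it was so for 46.4% of the genes tested) and the highest of all 12 libraries for 7 of them. The share of all genes tested that were highest in DMSO B of the 12 was not computed. Leaving out DMSO B kept P4ha1 below DMSO (-0.97 in AA+2i on the log2 scale). Serpinh1 moved to 1.02 in 2i and 0.94 in AA+2i. Plod3 moved to 0.60 in AA, 1.02 in 2i and 1.16 in AA+2i, and Plod1 to 0.68 in AA and 0.79 in AA+2i. Adjusted p for these was from 0.117 upwards in edgeR, with Serpinh1 in 2i at an unadjusted p under 0.05.

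**Figure D3:**
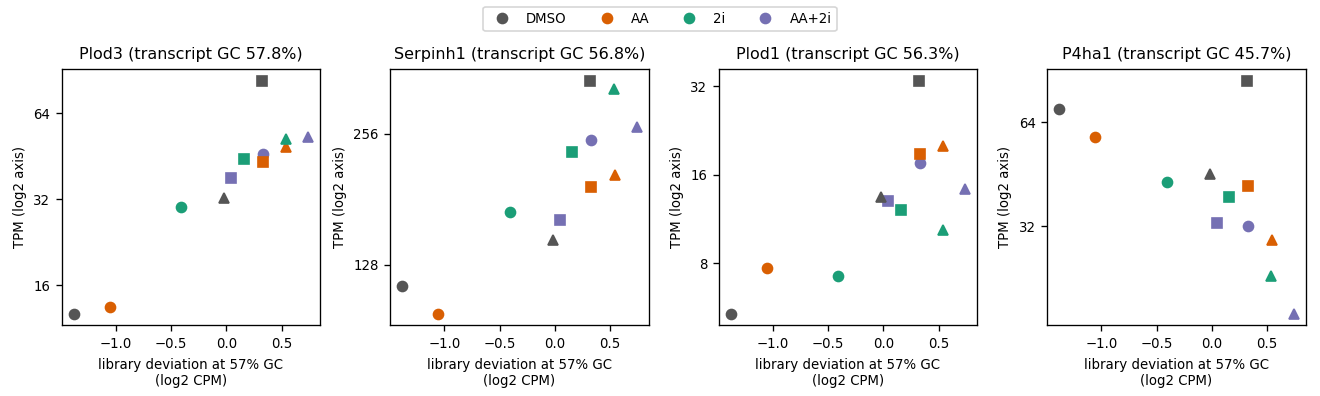
TPM (log2 axis) of Plod3, Serpinh1, Plod1 and P4ha1 in the 12 libraries against each library's deviation from the mean of the libraries at a GC content of 57% (log2 CPM), with colours for the conditions and circles, squares and triangles for letters A, B and C. DMSO A and AA A, at -1.38 and -1.06, hold the lowest values of the GC-rich Plod3 and Serpinh1 and, with P4ha1, 2 of the 3 highest.

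Of the 2 ascorbate transporters, Slc23a2 had the higher level in all 12 libraries, and its mean lay above those of P4ha2 and P4ha3 in each condition. Slc23a2, the widely expressed one (mm9 chr2:131878232-131970844, minus strand), was read at 14.1, 21.9 and 15.5 TPM in DMSO, 15.7, 12.8 and 13.4 in AA, 12.3, 10.9 and 11.3 in 2i, and 10.2, 12.1 and 8.62 in AA+2i. All libraries with 2i or AA+2i lay below all DMSO libraries, and those with AA+2i also lay below those with AA, but no comparison passed the test. The log2 difference was -0.52 in AA+2i (SE 0.168, unadjusted p = 0.0103, adjusted p = 0.0876, edgeR), -0.37 in 2i (SE 0.168, adjusted p = 0.309, edgeR) and -0.26 in AA (SE 0.168, adjusted p = 0.815, edgeR). DESeq2 called the first of these.
Slc23a1, the transporter of gut and kidney epithelium, was read at 2.05, 3.59 and 2.22 TPM in DMSO, 1.74, 1.30 and 2.03 in AA, 1.89, 2.25 and 1.04 in 2i, and 1.64, 1.89 and 1.16 in AA+2i. Its libraries with AA or AA+2i lay below those with DMSO, by a narrow gap in AA (2.03 against 2.05 TPM), and those with 2i overlapped. The log2 differences were -0.59 in AA, -0.40 in 2i and -0.54 in AA+2i (SE 0.31 to 0.311, edgeR adjusted p = 0.661, 0.554 and 0.284). Slc23a2 had 4.85 to 10.89 times the TPM of Slc23a1 in the 12 libraries, with no group apart from the others.

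With AA, edgeR called 0 of the 9 genes tested (0 at an unadjusted p under 0.05, and 0 by DESeq2 and by limma), beside 1.34% of all genes. With 2i it called 0 of 9 (2 at an unadjusted p under 0.05, P4ha1 and Slc23a2, and 0 by DESeq2 and by limma), against 4.42% of all genes. With AA+2i it called 1 of 9, P4ha1, against 8.34%, while DESeq2 called P4ha1 and Slc23a2 and limma called 0. AA+2i against 2i gave 0 of 9 (0 at an unadjusted p under 0.05, and 0 by DESeq2 and limma), against 0.91% of all genes. AA+2i against AA gave 0 of 9 (1 at an unadjusted p under 0.05, P4hb, which DESeq2 called and limma did not), against 6.1%, and the interaction gave 0 of 9 by edgeR, DESeq2 and limma and 0 at an unadjusted p under 0.05, against 0.0149%.
The median log2 difference of the 9 was -0.17 in AA, -0.40 in 2i and -0.49 in AA+2i, beside -0.01, -0.02 and -0.02 over all genes tested. Without DMSO B the medians of the 9 were -0.03, -0.21 and -0.22, and with the GC correction they were -0.38, -0.33 and -0.34. These comparisons share the DMSO libraries. The 3 DMSO and 3 treated libraries did not overlap for 1 of the 9 in AA (9.49% of all genes), for 2 in 2i (19.9%) and for 3 in AA+2i (32.1%), all lower than DMSO. AA+2i stood apart from 2i for 1 of the 9 (Plod1, 16.1% of all genes) and from AA for 1 (Slc23a2, 24.5%). Against DMSO, the shares of the 9 that did not overlap, and of those called, are near those of all genes.

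**Figure D4:**
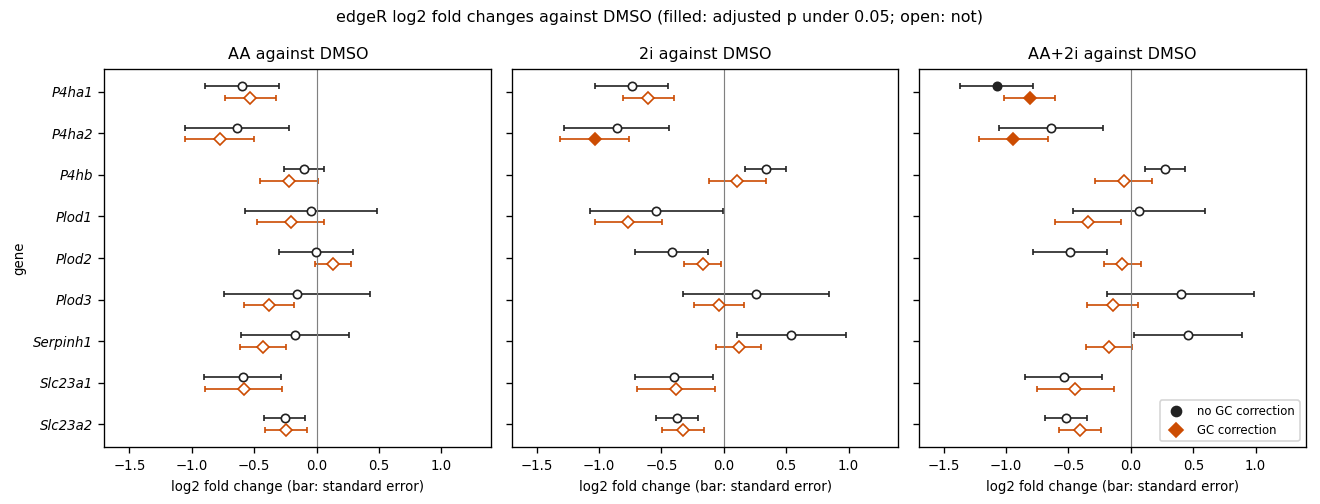
log2 fold changes of the 9 tested genes against DMSO by edgeR, in AA, 2i and AA+2i from left to right, without (black circles) and with (orange diamonds) the GC correction. Bars are standard errors and filled symbols have an adjusted p under 0.05, which holds for P4ha1 in AA+2i in both fits and for P4ha2 in 2i and AA+2i in the corrected one.

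Across all 4 conditions at once, P4ha1 had an adjusted p of 0.124 and Slc23a2 of 0.232 (edgeR), the lowest of the 9, and for this pair the genes of most similar pattern were looked up. Among 11748 genes with a mean of at least 1 TPM, those with the highest Pearson r to P4ha1 over the 12 libraries, on log2(TPM + 1), were Abca1 and Cd109 (both 0.985) and Insr (0.984). Mean Cd109 was 522 TPM in DMSO and 132 in AA+2i, and mean Insr was 25.5 and 8.93. Those most like Slc23a2 were Alg8 (0.965), Gtf3c2 (0.963) and 6030422M02Rik (0.955). Among the 10 genes, P4ha1 was most like Plod2 (r = 0.902), Slc23a2 (0.847) and Slc23a1 (0.746) and least like Serpinh1 (-0.399) and Plod3 (-0.375). Plod2, Slc23a1, Slc23a2 and P4ha1 are also those with the lowest transcript GC content of the 10 (43.0 to 48.5%), and all points share conditions and library effects.

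The other steps of collagen making were read from lists written with earlier results of these data known, and each count here is over all genes tested by edgeR. Of 20 folding and modification partners in the endoplasmic reticulum, such as prolyl 3-hydroxylases, galactosyltransferases and chaperones, 0 were called against DMSO. Over all genes, edgeR called 1.34% in AA, 4.42% in 2i and 8.34% in AA+2i. At an unadjusted p under 0.05 there were 1 in AA, 2 in 2i and 4 in AA+2i, and DESeq2 called 0, 0 and 1 and limma 0, 0 and 1. With the GC correction edgeR called 0, 1 and 5, all lower, beside 4.03%, 12.1% and 19.8% of all genes. Their median log2 difference in AA+2i was -0.49, beside -0.02 over all genes, and -0.31 with the GC correction.
In AA, edgeR also called 0 export, cleavage and crosslinking genes (5 at an unadjusted p under 0.05, 2 by DESeq2, 1 by limma), 0 collagen chains (2, 0 and 0 in the same order), 0 dioxygenases (1, 0 and 0) and 0 stress genes of the endoplasmic reticulum (1, 0 and 0). Over all genes the share in AA was 1.34%. With the GC correction it was 4.03%, with 1 export gene higher and 2 lower, 1 chain lower, 1 dioxygenase higher and 0 stress genes.
Of 17 tested genes for procollagen export, cleavage and crosslinking, 1 rose and 1 fell in 2i, beside 4.42% of all genes called. In AA+2i, 2 rose and 1 fell, beside 8.34%. The GC-corrected fit called 2 higher and 3 lower in 2i (12.1% of all genes), and 2 higher and 5 lower in AA+2i (19.8%). Tll1, a procollagen C-proteinase, rose with both, from 0.23 to 0.38 TPM in the DMSO libraries to 2.53 to 4.41 in 2i (3.49 on the log2 scale, SE 0.37, edgeR adjusted p = 0.000618) and 0.87 to 1.52 in AA+2i (2.17, SE 0.359, edgeR adjusted p = 0.00433). Sec24d, a coat protein of the vesicles that carry procollagen out of the endoplasmic reticulum, rose by 1.34 in AA+2i (SE 0.276, edgeR adjusted p = 0.0133), from a mean of 3.40 to 7.54 TPM. Of the lysyl oxidases, which crosslink secreted collagen, Loxl4 fell by 1.53 in 2i (47.8 ± 22.1 to 14.1 ± 2.71 TPM, n = 3) and Loxl2 fell by 0.97 in AA+2i (15.9 ± 3.97 to 7.08 ± 1.79 TPM, n = 3).
Of 12 tested collagen chains, Col4a5, a chain of basement membrane collagen, rose in 2i (1.81, SE 0.351, edgeR adjusted p = 0.0152) and in AA+2i (1.37, SE 0.347, edgeR adjusted p = 0.0344). Its range was 2.95 to 7.27 TPM in DMSO, 9.23 to 18.24 in 2i and 8.88 to 9.83 in AA+2i. Col3a1 was also called higher in AA+2i (2.25, SE 0.508, edgeR adjusted p = 0.0205), at a mean of 0.56 TPM against 0.133. Thus 1 of the 12 chains was called in 2i and 2 in AA+2i, beside 4.42% and 8.34% of all genes. Corrected for GC content, 2 chains were called higher in 2i (12.1% of all genes), and 2 higher and 2 lower in AA+2i (19.8%).
Compared with AA alone, edgeR called 1 of the 17 export genes higher in AA+2i, Tll1 (adjusted p = 0.00063). It called 1 lower, Loxl1 (adjusted p = 0.00822, 1.66 ± 0.725 TPM in AA and 0.107 ± 0.0666 in AA+2i, n = 3). Of the 12 chains it called 2 higher, Col4a5 (adjusted p = 0.00251) and Col3a1 (adjusted p = 0.0193, a mean of 0.123 TPM in AA and 0.56 in AA+2i). Over all genes the share in this comparison was 6.1%.

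Among 9 tested dioxygenases outside chromatin that also use ascorbate, 1 fell in 2i, Egln3, which hydroxylates the hypoxia-inducible factors, and 0 were called in AA+2i against DMSO (5 at an unadjusted p under 0.05, 4 by DESeq2 and 0 by limma). Over all genes, edgeR called 4.42% in 2i and 8.34% in AA+2i. After GC correction, edgeR called 6 of the 9 in AA+2i, 3 higher and 3 lower, beside 19.8% of all genes. In 2i it then called 1 higher and 1 lower, beside 12.1%. Egln3 was at 131 ± 31.7 TPM in DMSO, 159 ± 23.6 in AA, 45.8 ± 19.1 in 2i and 56.9 ± 14.9 in AA+2i (n = 3), a log2 change of -1.37 in 2i (SE 0.329, edgeR adjusted p = 0.0402). A list of 25 genes of the hypoxia response held inducible genes, as P4ha1 and P4ha2 are also known to be. It also held subunits of the hypoxia-inducible factors, such as Epas1. Of the 25, 3 fell in 2i, beside 4.42% of all genes called. In AA+2i 1 fell, Epas1, beside 8.34%, and edgeR called 0 higher in either. At an unadjusted p under 0.05 there were 9 in 2i and 8 in AA+2i, while DESeq2 called 4 and 4 and limma 4 and 2. The GC-corrected fit called 1 higher and 5 lower in 2i (12.1% of all genes) and 1 higher and 4 lower in AA+2i (19.8%). Those called without it were Epas1, the HIF-2 alpha subunit (-1.98 in 2i and -1.24 in AA+2i), Egln3, and Ndrg1 (-0.95 in 2i), by edgeR at adjusted p of 0.00511, 0.0298, 0.0402 and 0.0384. The median over the 25 was -0.22 in 2i, -0.29 in AA+2i and 0.07 in AA, beside -0.02, -0.02 and -0.01 over all genes. With the GC correction the medians of the 25 were -0.123, -0.099 and 0.059. In AA edgeR called 0 of them (1 at an unadjusted p under 0.05, 0 by DESeq2 and by limma), beside 1.34% of all genes.
Of 12 tested genes for dehydroascorbate uptake and ascorbate recycling, edgeR called 0 against DMSO, with 3, 4 and 1 at an unadjusted p under 0.05 in AA, 2i and AA+2i, where DESeq2 called 0, 2 and 1 and limma 0, 1 and 0. Over all genes, edgeR called 1.34%, 4.42% and 8.34% in these comparisons. With the GC correction edgeR called 2 higher and 2 lower in 2i (12.1% of all genes), and 2 higher and 1 lower in AA+2i (19.8%). Of 13 heat shock genes, the family from which Serpinh1 takes its other name, edgeR called 0 against DMSO, with 0, 1 and 4 at an unadjusted p under 0.05, where DESeq2 called 0, 1 and 3 and limma called 0. The shares over all genes were again 1.34%, 4.42% and 8.34%. Corrected for GC content, edgeR called 1 higher in 2i (12.1% of all genes) and 1 higher in AA+2i (19.8%). Of 15 genes of endoplasmic reticulum stress, 1 fell in 2i and 2 in AA+2i, beside 4.42% and 8.34% of all genes called. At an unadjusted p under 0.05 there were 4 and 6, while DESeq2 called 2 and 4 and limma 1 and 2. With the GC correction edgeR called 1 and 3, all lower, beside 12.1% and 19.8%. Atf6, a sensor of misfolded proteins, fell by 0.96 in 2i (SE 0.206, edgeR adjusted p = 0.0254) and fell by 1.18 in AA+2i (SE 0.207, edgeR adjusted p = 0.00565), from 17.1 to 23.5 TPM in the DMSO libraries to 6.14 to 9.12 in AA+2i. Dnajb9, a cochaperone, fell by 1.26 in AA+2i (SE 0.328, edgeR adjusted p = 0.0379), and with the GC correction the difference was -0.64 (edgeR adjusted p = 0.0323).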

How the data were processed

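RNA was measured in 12 libraries, 3 biological replicates of each of 4 conditions, grouped by their labels. Trimmed reads were aligned by the authors with Bowtie2 to RefSeq transcripts (mm9) and quantified by RSEM, version 1.2.4 per the processing notes. The expected counts that the authors deposited are not normalized and divide reads shared between genes. Deposited TPM are scaled within a library, and 1 malformed TPM cell was recomputed from FPKM. Reads were not assigned by strand, so overlapping genes can share them.
After rounding, expected counts of genes that reached 10 in 3 or more libraries were tested in edgeR 4.0.16 (RLE factors, quasi-likelihood test, 1 model of 4 conditions, Benjamini-Hochberg adjusted p under 0.05). SE is the log2 fold change over the square root of F. p-values measure the spread between these replicates of 1 line. The GC correction entered a loess curve per library (span 0.4) as an offset. Scripts were tested on simulated data. Alternatives used TMM, DESeq2 1.42.0, limma 3.58.1, other filters, only the groups compared, the letters as a block, and fewer libraries.
The 10 genes and the lists were chosen with earlier results of these data known. All 10 genes are named, with at most 4 called genes of each list per comparison.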

Additional observations from a re-analysis of the deposited data

Results flagged for a closer look

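P4ha3, 2i without and with AA, stood out because, within each letter, its level was higher in 2i than in DMSO but lower in AA+2i than in AA. The mean difference between these effects was -0.073 TPM, from at most 4.45 expected counts per library. P4ha3 did not pass the filter on low counts, and when edgeR was run with no count filter the interaction of AA and 2i was -1.48 on the log2 scale (SE 1.24, adjusted p = 1.0).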

How the results depend on the processing

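Over 15 alternatives and the 27 differences of the 9 genes from DMSO, 349 of 405 values kept their direction and their side of the threshold, 33 changed sign, 13 passed the threshold only under the alternative and 10, all P4ha1 in AA+2i, lost it. None of those that changed sign was called in either fit. The count with AA+2i went from 1 to 0 with limma at both pseudocounts, with no count filter, with 10 counts in every library, with only the groups compared, without DMSO A and AA A and without DMSO B (both added after seeing the data), and to 0 in each case when a letter was left out. It went to 2 with DESeq2 and with the GC correction. With 2i it went from 0 to 1 with the GC correction, and for AA+2i against AA from 0 to 1 with DESeq2. The cause was not tested. On limma's TPM scale the median of all genes was -0.15 with AA+2i (log2(TPM + 1)), which is part of its value for each gene.
The letters were entered as a replicate block in 1 alternative. Their pairing is not given by the labels, and of 18 pairs of libraries with the same letter 15 deviated together with r over 0.1 (-0.588 to 0.894, mean 0.401). With the replicate block, 1 gene was called in AA (P4ha1), 1 in 2i (P4ha1), 2 in AA+2i (P4ha1 and Slc23a2) and 1 in AA+2i against AA (P4ha1). The adjusted p of P4ha1 against DMSO was then 0.0268 in AA, 0.00467 in 2i and 0.000443 in AA+2i (edgeR). With the block and GC correction 2 were called in AA (P4ha1 and P4ha2), 3 in 2i (P4ha1, P4ha2 and Plod1) and 3 in AA+2i (P4ha1, P4ha2 and Slc23a2).
With the GC correction, alone and with the block, the difference from DMSO changed sign for P4hb (-0.059 and -0.039), Plod1 (-0.34 and -0.28), Plod3 (-0.15 and -0.11) and Serpinh1 (-0.17 and -0.16) with AA+2i, for Plod3 with 2i (-0.036 and -0.001) and for Plod2 with AA (0.13 and 0.14). Plod1 with AA was 0.069 and 0.089 by limma and 0.031 with the block, and Plod2 with AA was 0.002 with TMM factors. Without DMSO B, differences with AA changed to 0.68 for Plod1, 0.038 for Plod2, 0.60 for Plod3 and 0.31 for Serpinh1, and Plod1 with 2i to 0.19. Without DMSO A and AA A, Plod1 (-0.36) and Plod3 (-0.029) with AA+2i and Plod3 with 2i (-0.16) changed sign. When a letter was left out, differences with AA ranged from -0.19 to 0.021 for P4hb, -0.39 to 0.52 for Plod1, -0.16 to 0.14 for Plod2, -0.60 to 0.43 for Plod3 and -0.52 to 0.18 for Serpinh1. Plod1 ranged from -0.74 to 0.023 with 2i and -0.43 to 0.93 with AA+2i, and Plod3 from -0.073 to 0.99 with 2i.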
